A study of Homo sapiens and Mus musculus with 9 samples.

Results

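The comparison described here sets 2 of the 9 samples of the series against each other, the ribosome profiling (Ribo-seq) libraries titled Ribo_starvation_trans1 and Ribo_starvation_trans2, called trans1 and trans2. Both come from HEK293, a human embryonic kidney line, with the genotype given as WT. Both carry the treatment starvation together with transfection of a trans-RNA against ATF4, and the series' design text places the target in the main open reading frame of that gene. Their labels do not differ beyond the number in the title, so whether trans1 and trans2 are different RNAs or repeats of 1 RNA cannot be told apart. The other samples are HEK293 Ribo-seq of control and starved cells, small RNA libraries of HEK293 and RNA-seq of mouse liver. Each group holds 1 library, so no difference was tested against biological variation, and no p-value was computed. The starvation library was kept out of the comparison and appears only as a level beside 1 transcript and in a reference for size.

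Ribosome profiling reads the short mRNA fragments that a ribosome covers, and the number of such footprints on an mRNA follows both its amount and how often it is translated. RNA-seq of these cells was not analysed here, so mRNA level and translation cannot be told apart in any ratio below. ATF4 is the transcription factor of the integrated stress response. Its mRNA is the textbook case of control by upstream open reading frames, the last of which overlaps the start of the coding frame and is read in a different frame. Translation of ATF4 rises when general initiation falls, as in amino acid starvation.

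Of 14147 transcripts listed in trans1 and 15051 in trans2, 13294 were listed in both, and read numbers could be recovered for 10148. Depth was 6127193 recovered footprints in trans1 and 7523937 in trans2, a ratio of 1.23. Levels are given as footprints scaled to the recovered total of the library (CPM), and the ratio is log2 of trans1 over trans2 after adding 1 CPM to each. Single genes are described from the 8695 transcripts with reads at 8 or more positions in both libraries, of which 2525 have a gene symbol. Brackets after a ratio give the exact 95% (Clopper-Pearson) interval of the ratio of reads without the added CPM, and these cover counting error only. The reads recovered for single transcripts can be too low by a factor that is the same in every library, which leaves ratios as they are. Among the markers fixed for HEK293, most of which had no recovered level, the neurofilament gene NEFL was at 75.4 CPM in trans1 and 69.1 CPM in trans2. Of the markers of blood, liver, connective tissue and vessel cells, only COL1A1 is paired with a transcript, and no level was recovered for it, so these cell types could not be checked.

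The libraries differed in how their reads were spread. The deposited windows run from 30 nt before to 300 nt after the start codon and from 300 nt before to 30 nt after the stop codon. Positions are as deposited, and no source used here states which base of a footprint they mark. Mean density, relative to each transcript's own mean, was highest at -12 in the start window and at -18 in the stop window. A footprint placed shortly before a codon can thus be that of a ribosome at or past it. In the median transcript, reads stood at 28 positions of these windows in trans1 and at 48 in trans2. Only 251 of the 8695 transcripts, 2.89%, had more positions with reads in trans1. Each occupied position held a mean of 10.9 reads in trans1 and 8.47 in trans2. More than 50% of the window reads lay at 1 position in 184 transcripts of trans1 and in 93 of trans2. In 56 transcripts this was so in both libraries, and in all 56 at the same position. Stacked reads make counting intervals too narrow where they are copies of 1 fragment, and the part of this difference in the ratios was not tested.

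**Figure D1:**
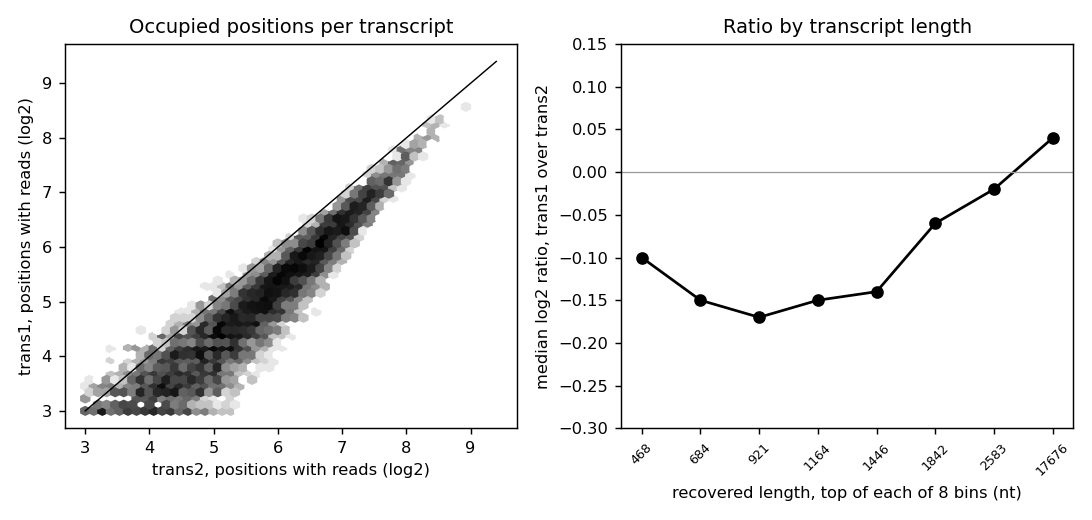
Left, number of window positions with reads per transcript in trans2 (x, log2) and trans1 (y, log2), where darker cells hold more of the 8695 transcripts and the line marks equal numbers. Right, median log2 ratio of trans1 over trans2 (y) in 8 bins of recovered coding length (x, upper limit of each bin in nt). Nearly all transcripts lie under the line, and the median rises from -0.17 in the third bin to 0.04 in the last.

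Most transcripts carried similar shares of both libraries, and the large differences were mainly on the lower side of trans1. Among all 10145 transcripts with at least 1 CPM in 1 of the libraries, 101 (0.996%) were at least 2-fold higher in trans1 and 421 (4.15%) at least 2-fold lower. Among the 8695 transcripts with 8 or more positions, 72 (0.828%) were higher and 264 (3.04%) lower. Their log2 ratios had a median of -0.09 and an SD of 0.46, and 41.3% were above 0. Centred on the median of all transcripts, which shifts every ratio by 0.11, the 10145 transcripts gave 156 higher and 289 lower, so the higher share of the calls was 35.1% in place of 19.3%.

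Occupied positions can be read against the 2.89% of all transcripts that had more of them in trans1. Among the 72 higher transcripts 16 had more positions in trans1. Among the 264 lower ones 263 had fewer, which is close to the share over all transcripts. The windows of a transcript often differed. Spearman's rho of the start-window with the stop-window log2 ratio was 0.19 across transcripts. Of the higher transcripts with both windows, 34 of 67 had both in that direction, against 228 of 250 lower ones. In each window alone the median of all transcripts lay below 0, which favours the lower side.

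As a reference for size, starvation was set against control, a pair that shares no library with trans1 and trans2. Over 8544 transcripts with 8 or more positions in all 4 libraries, the SD of the log2 ratio was 0.46 for trans1 over trans2 and 0.46 for starvation over control. The interquartile range was 0.59 against 0.57. The first pair had 69 transcripts at least 2-fold higher and 261 lower, and starvation had 180 higher and 119 lower than control (0.808% and 3.05% against 2.11% and 1.39%). The control library held 10648560 footprints and the starvation library 9370380. The spread was thus similar in size for both pairs. The trans-RNA libraries held fewer footprints, so counting error can make up more of their spread, and its part was not tested. Whether the spread between repeats would be smaller cannot be told from 1 library per group.

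**Figure D2:**
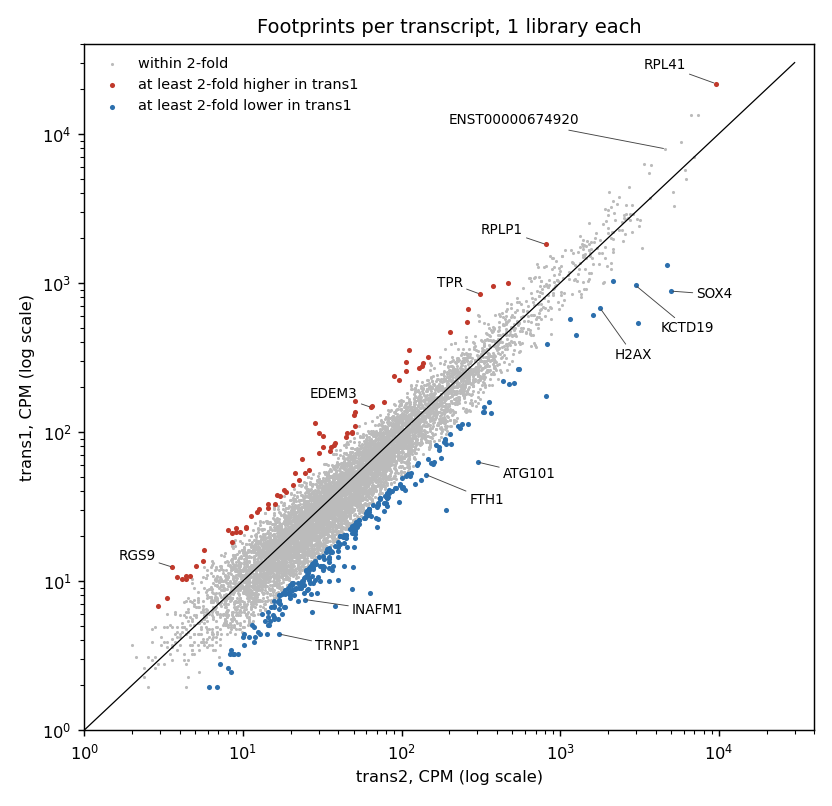
Footprints per transcript in trans2 (x) and trans1 (y), in CPM on log scales, for the 8695 transcripts with 8 or more positions in both libraries. Each point is 1 transcript, the line marks equal levels, and coloured points differ at least 2-fold. RPL41 stands highest on the trans1 side, and SOX4 lies farthest below the line among the labelled transcripts.

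The transcript ENST00000674920 was followed by position because earlier results of these data singled it out. No table used here pairs it with a gene symbol. Its level was 289 CPM in control, 488 CPM in starvation, 7923 CPM in trans1 and 4591 CPM in trans2. Both trans-RNA libraries lay far above the others, and it ranked 5 by level in trans1 and 12 in trans2. Trans1 was 1.73 times (1.70 to 1.75) trans2, a log2 ratio of 0.79, which ranks 174 from the top of the 8695.

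The excess of trans1 on this transcript was uneven along it. In the 30 nt before the start codon trans1 held 2333 CPM and trans2 814 CPM, a fold of 2.87 (2.78 to 2.95). In the first 100 nt from the start codon the values were 3376 and 2223 CPM, a fold of 1.52 (1.49 to 1.55). In the 100 nt after that the levels were 33.1 and 28.7 CPM, with an interval that holds equality (0.948 to 1.40). From 200 to 300 nt trans1 was lower, at 18.8 against 28.0 CPM, a fold of 0.669 (0.529 to 0.844). In the 300 nt before the stop codon, read in steps of 100 nt, the folds were 1.39 (1.17 to 1.66), 2.11 (1.81 to 2.47) and 0.874 (0.734 to 1.04). Starvation alone held 26.1 CPM from 200 to 300 nt, between the trans-RNA libraries, and 56.8, 70.1 and 51.0 CPM in the steps before the stop codon. Outside the windows it held 146 CPM, against 1996 CPM in trans1 and 1381 CPM in trans2. The trans-RNA libraries thus stood far above starvation around the start codon and outside the windows, and within 2-fold of it in the last 300 nt of the coding frame. Of the transcript's footprints, 29.4% in trans1 and 17.7% in trans2 were placed before the start codon, and 42.6% and 48.4% in the 100 nt after it. No offset was applied, so the first share can hold ribosomes at or past the start codon.

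Among single positions, 2 stood out. Position -3, counted from 0 at the first base of the start codon, held 4733 reads in trans1 and 903 in trans2, or 772 against 120 CPM, a fold of 6.44 (5.99 to 6.92). Position 6 held 304 against 43.6 CPM, a fold of 6.96 (6.19 to 7.85). These were the only ones among the highest 10 of either library with more than a 4-fold difference, and both lie in the frame of the coding sequence. At position 11, the highest of trans2, the levels were close, 528 against 435 CPM. Position 47 went the other way, at 58.3 CPM in trans1 and 176 CPM in trans2, a fold of 0.332 (0.294 to 0.373). Of the 10 highest positions of each library 6 were shared.

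Read by frame from position -30 to 99, the coding frame (frame 0) held 1924 CPM in trans1 and 769 CPM in trans2, a fold of 2.50 (2.42 to 2.58). Frame 2, in which most of these footprints lay, held 3314 against 1992 CPM, a fold of 1.66 (1.63 to 1.70), and frame 1 a fold of 1.71 (1.61 to 1.81). Without positions -3 and 6 the fold of frame 0 was 1.40 (1.34 to 1.46), the lowest of the 3 frames. The positions left out were chosen after their values were seen. In the first 100 nt, frame 2 took 60.1% of the footprints of this transcript in trans1 and 64.8% in trans2, as well as 74.7% in control and 71.6% in starvation. Over all other transcripts frame 0 took 86.2% in trans1 and 85.2% in trans2 of the same stretch. Frame 2 was thus the main frame there in all 4 libraries. From 100 to 300 nt, where reads are few, frame 0 took 50.6% of 318 reads in trans1, 63.2% of 427 in trans2, 80.7% of 322 in starvation and 40.9% of 181 in control. Control was the lowest of the 4 there.

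**Figure D3:**
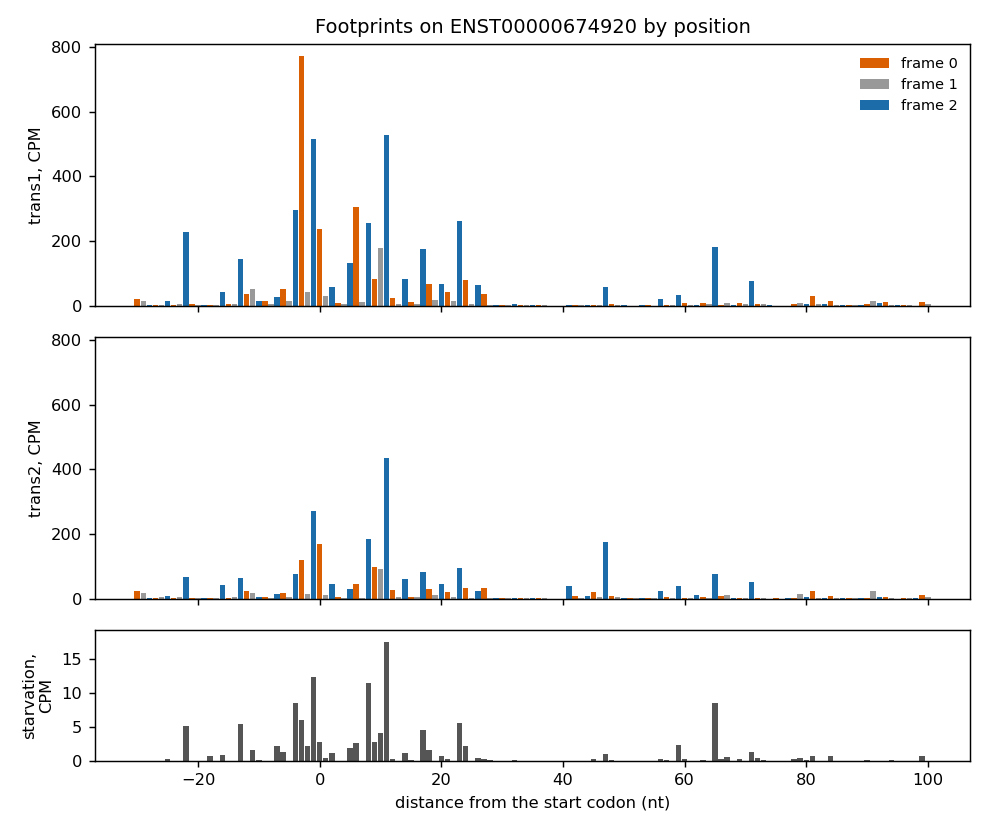
Footprints on ENST00000674920 by distance from the start codon (x, nt) in trans1, trans2 and starvation (y, CPM per position), with trans1 and trans2 on the same scale, coloured by frame, and starvation on its own scale. The bar at -3 reaches 772 CPM in trans1 and 120 CPM in trans2, while the bars at 11 are close, at 528 and 435 CPM.

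A difference at position -3 was also present in the mean over transcripts. Mean density, in units of the transcript's own mean, was highest within the start window at position -12 in both libraries, at 7.17 in trans1 and 7.52 in trans2. At -3 it was 4.44 in trans1 and 3.10 in trans2, and at 0 it was 4.0 and 4.80. Without the 10 transcripts of highest density at that position, the means at -3 were 3.98 and 2.84. Reads at -3 were found in 21.9% of transcripts in trans1 and 28.4% in trans2, against 24.7% and 38.1% at -12. The start window took 53% of the reads of both windows in trans1 (52.9 to 53.1) and 53.2% in trans2 (53.2 to 53.3) over 8181 transcripts long enough for separate windows.

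**Figure D4:**
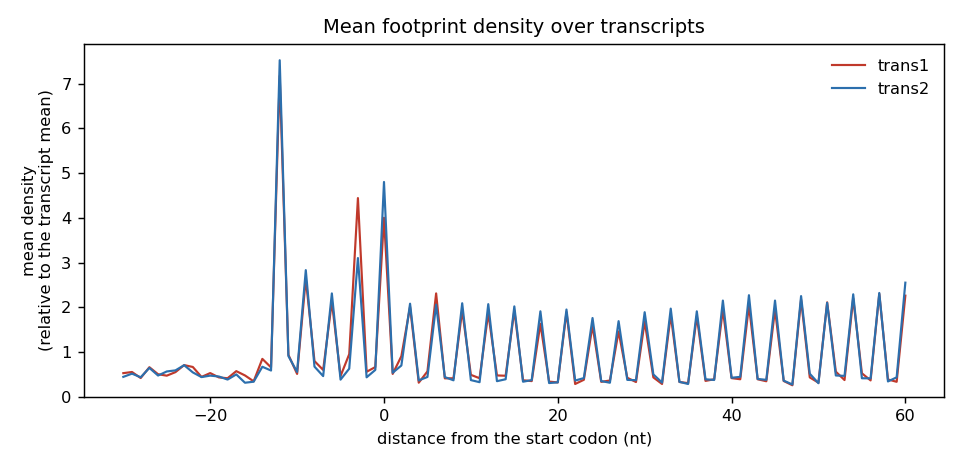
Mean footprint density over 8695 transcripts (y, relative to the mean of each transcript) by distance from the start codon (x, nt) in trans1 and trans2. The lines overlap at most positions, and trans1 is higher at -3 (4.44 against 3.10) and lower at 0 (4.0 against 4.80).

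Ribosomal protein mRNAs, which encode the proteins of the cytosolic ribosome, differed widely among themselves, and the side their median took depended on what was counted. Of 38 measured members, 26 were above 0 and 12 below, beside 41.3% of all transcripts above 0. Of these members 2 were at least 2-fold higher and 0 at least 2-fold lower, against 0.828% and 3.04% of all transcripts. Their median was 0.11, beside -0.09 over all transcripts. It was 0.00 in the start window alone and -0.33 over 20 members in the coding frames of the authors' deposited table. Over all transcripts the median was also lower in the start window alone. In the authors' deposited table it was -0.21 over all coding frames. Ribosomal protein mRNAs are known for a run of pyrimidines at their 5′ end, the TOP motif, through which the nutrient-sensing kinase mTOR controls their translation. The windows around the RefSeq start site (GRCh38.p14, 10 bases before and 20 bases from the start) are shown for the 3 highest and 3 of the 4 lowest members, to set the start sites at both ends of the list side by side. Capitals mark the unbroken run of C or T that begins at the start site.
RPL41: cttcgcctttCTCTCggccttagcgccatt
RPLP1: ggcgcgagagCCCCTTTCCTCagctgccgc
RPL38: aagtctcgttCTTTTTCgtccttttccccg
RPL37A: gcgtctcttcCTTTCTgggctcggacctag
RPL27: gtgaaaggttagcggaagtgtccttctttc
RPS28: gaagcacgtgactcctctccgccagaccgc
They lie on the plus strand at chr12:56116623-56116652, chr15:69452808-69452837, chr17:74203668-74203697, chr2:216498834-216498863, chr17:42998409-42998438 and chr19:8321486-8321515. All 3 of the highest and 1 of the 3 low members hold a run of at least 5 bases from the annotated start. RPL17, the lowest member, lies on the minus strand and is not shown, and it has no run there.

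RPL41, the smallest protein of the large subunit, was at 21705 CPM in trans1 and 9522 CPM in trans2, a log2 ratio of 1.19 (1.18 to 1.2). It stood at 1.08 without its highest position. RPLP1, an acidic protein of the ribosomal stalk, was at 1811 and 810 CPM, a ratio of 1.16 (1.12 to 1.21). Its stalk partner RPLP2 was at 6175 and 3723 CPM, or 0.73. RPL38 was at 6274 and 3362 CPM, or 0.90, but 59.9% of its window reads in trans1 lay at position 144, against 28.5% in trans2. Without the highest position of each library RPL38 came to 0.11. RPS6, the classic substrate of the S6 kinase, was at 2522 and 1511 CPM, or 0.74. At the other end RPL17 was at 216 and 303 CPM, a ratio of -0.49 (-0.59 to -0.39). RPL27 and RPL37A were both at -0.38, and 41.0% of the window reads of RPL37A in trans2 stood at 1 position. Without the highest position of each library RPL37A was at 0.06.

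A C at the annotated start followed by at least 4 pyrimidines, searched on the transcribed strand at that place only, was present in 17 of the 29 ribosomal protein genes with a window (58.6%) and in 4.04% of all 27305 RefSeq promoters in the table. Among the ribosomal proteins, the median length of the run was 6 bases where the ratio was above 0 and 1 base where it was below 0. A tract that begins further on, as in the windows of RPS28 and RPL27 above, counts as no run. A missing run at the annotated start therefore does not mean that the mRNA lacks the motif. Over all measured genes the median ratio was -0.04 in 124 genes with the run and -0.08 in 1977 without it. Many ribosomal protein genes have processed copies elsewhere in the genome, and the files and labels do not tell how reads shared with such copies were counted. Their levels are therefore uncertain.

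The highest ratios among named genes came mostly from thinly covered transcripts, with reads at 8 to 39 positions in 10 of the 12. The rule took the 12 highest and the 12 lowest of 2435 genes with at least 10 CPM in 1 library, without histones and pseudogenes. RPL41 and RPLP1 were among the 12 highest. The others were RGS9, TPR, RIBC2, AP5M1, EDEM3, POLR3B, HOXA7, ANKRD26, JAG1 and PALM2AKAP2, between 1.13 and 1.55. In 3 of the 12, more positions had reads in trans1 than in trans2.

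TPR, a protein of the nuclear pore basket, was the most abundant of these after the ribosomal proteins, with 840 CPM in trans1 and 313 CPM in trans2, a ratio of 1.42 (1.35 to 1.5). Only 1.30% of its reads in trans1 and 3.23% in trans2 lay in the deposited windows, and in the stop window alone it was at -1.43. EDEM3, which trims mannose from misfolded glycoproteins in the endoplasmic reticulum, was at 146 and 64.5 CPM, with 5.04% and 8.25% of its reads in the windows. Where the remaining reads of these mRNAs lay cannot be read from the files. RGS9, a regulator of G protein signalling, had the highest ratio, 1.55 (1.14 to 2.48), from 76 and 27 reads at 8 positions in each library. Of these, 22.4% in trans1 and 96.3% in trans2 lay in the windows.

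JAG1, a Notch ligand, was at 41.0 and 18.1 CPM, or 1.14, with 91.5% of its window reads in trans1 and 67.2% in trans2 at position -8. Without that position it was at 0.13. ANKRD26 had 73.0% and 79.2% at position 73, and POLR3B, a subunit of RNA polymerase III, 69.2% at position 177 in trans1. HOXA7, a homeobox transcription factor, was at 21.2 and 9.04 CPM, a ratio of 1.15 (0.80 to 1.68), with no position above 26.6%. PALM2AKAP2 was at 10.8 and 4.39 CPM, and both of its windows were above 0.

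The lowest ratios were larger in size. SOX4, a developmental transcription factor, was at 880 CPM in trans1 and 4991 CPM in trans2, a ratio of -2.50 (-2.54 to -2.46). Of its window reads, 96.1% and 99.1% stood 225 nt before the stop codon, and without that position the ratio was 0.03. ATG101, a subunit of the autophagy-starting ULK1 complex, was at 62.8 and 301 CPM, or -2.24 (-2.42 to -2.11), with 48.5% and 86.5% of the window reads 5 nt before the stop codon. Without that position it was at -0.58. KCTD19 was at 962 and 2982 CPM from reads at only 8 and 13 positions, with 60.9% and 55.9% at position 295, and was at -1.76 without it. GORASP2, a Golgi stacking protein, was at -1.40 and came to -0.59 without its position 15.

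The other 8 of the 12 lowest kept a ratio below -1.4 without their highest position. FTH1, the heavy chain of the iron store ferritin, was at 51.6 CPM in trans1 and 143 CPM in trans2, a ratio of -1.45 (-1.65 to -1.29), and at -1.63 without the highest position. Its windows, which overlap in part, were at -0.98 and -0.32. They span its recovered length of 555 nt, yet held only 67.1% of its reads in trans1 and 47.1% in trans2. Unless that length is too small, the other reads thus lay outside the coding frame and beyond the windows. The ratio of FTH1 then counts more than coding footprints. Where outside the frame these reads lay cannot be read from the files. ARL16, an ADP-ribosylation factor-like GTPase, was at 23.2 and 69.5 CPM, or -1.54 (-1.86 to -1.31), with reads at 40 and 93 positions. MAPK1IP1L was at 16.8 and 50.1 CPM, or -1.52, and CDKN1C, a cell cycle inhibitor, at 12.7 and 37.2 CPM, or -1.48. Of CDKN1C's window reads, 64.0% and 59.2% stood at position 21.

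ADO, an enzyme that oxidises thiols, was at 8.32 and 29.1 CPM, or -1.69 (-2.28 to -1.36), with reads at 11 positions in trans1 and 52 in trans2. TRNP1 was at -1.73 (-2.59 to -1.33), INAFM1 at -1.59 and MYADM at -1.41, each under 10 CPM in trans1. In all of the 12 lowest fewer positions had reads in trans1, as in most transcripts.

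Gene lists showed where the shift towards trans2 was widest. Of 23 lists, 22 had at least 3 measured members. The median was above 0 in 5 of them and below -0.09, the median of all transcripts, in 13. Of all 8695 transcripts, 5105 were below 0 and 41.3% above. Counts of members on either side, here and further below, are to be read against these. Some genes belong to several lists, such as SESN2 to the p53 and ATF4 lists and BTG2 to the p53 and immediate early lists. The lists are therefore not independent of each other. For 6 lists the sign of the median changed when ratios were centred or scaled to another library total. These were the aminoacyl-tRNA synthetases, the unfolded protein response, cell cycle genes, the proteasome, splicing factors and homeobox genes, whose medians lay between -0.10 and 0.00. Besides the highest and lowest members of a list, some are named below for their known roles and were chosen after their values were seen. Reads of a window alone were scaled to the total of that window, where the median of all transcripts lay further below 0. Occupied positions were scaled to their own total, so a value above 0 can go with fewer positions in trans1.

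All 7 measured p53 targets were below 0, with a median of -0.64 and none past 2-fold. DDB2, a DNA damage sensor, was at 92.0 CPM in trans1 and 151 CPM in trans2, a ratio of -0.71 (-0.87 to -0.57). RRM2B, a subunit of ribonucleotide reductase, was at 43.9 and 73.5 CPM, or -0.73, and the apoptosis gene BBC3 at -0.67. CDKN1A, the cell cycle inhibitor p21, was at 59.4 and 81.6 CPM, or -0.45 (-0.65 to -0.27). SESN1 came nearest to 0, at -0.22, with an interval that holds 0. The list's median stayed between -0.66 and -0.27 under every alternative run for it.

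Lysosome and autophagy genes were below 0 in 9 of 9, with a median of -0.56, which lay between -0.80 and -0.23 over the alternatives run. Only ATG101 was past 2-fold, or 1 of 9, beside 3.04% of all transcripts. ATG9A, the membrane protein of autophagosome formation, was at 19.6 and 39.5 CPM, or -0.98 (-1.33 to -0.70). ATP6V0C of the lysosomal proton pump was at -0.95, MAP1LC3B, the source of LC3 on autophagosomes, at -0.77 with 58.2% of its window reads in trans1 at 1 position, and the protease CTSB at -0.56. GABARAP, an LC3 relative and the most abundant member, was at 541 and 547 CPM, which is close to equal (-0.08 to 0.05).

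NRF2 targets, the antioxidant and iron genes, had a median of -0.49, with 5 of 6 below 0 and 2 at least 2-fold lower, beside 3.04% of all transcripts. The median was -0.06 in the stop window alone. Besides FTH1, GCLC, the rate-limiting enzyme of glutathione synthesis, was at 44.4 and 97.4 CPM, a ratio of -1.12 (-1.34 to -0.93). The ferritin light chain FTL was at 65.8 and 112 CPM, or -0.76 (-0.95 to -0.60). Both ferritin chains were thus lower in trans1. TXN, thioredoxin, went the other way, at 2348 and 1999 CPM, or 0.23 (0.20 to 0.27).

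In cholesterol synthesis 4 of 5 members were below 0, and the median was -0.54 (-0.80 to -0.43 over the alternatives run). Of the 5 members, 2 were at least 2-fold lower, beside 3.04% of all transcripts. INSIG1, which holds back the sterol-sensing SREBP complex, was at 27.6 and 61.0 CPM, or -1.12 (-1.41 to -0.89). DHCR7, the last enzyme of the pathway, was at 13.1 and 27.1 CPM, or -1.0 (-1.45 to -0.67), which is at the threshold of 2-fold. HMGCS1, an early enzyme, was the exception at 0.25 (0.07 to 0.44).

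Of the genes listed for ATF4 and the stress response it serves, 7 of 8 were below 0, with a median of -0.42. It was -0.59 in the start window alone and -0.08 in the stop window alone. The amino acid transporters SLC38A2 at -0.57 (-0.72 to -0.42), SLC7A1 at -0.46, SLC7A5 at -0.37 and SLC1A5 at -0.34 were all lower in trans1. ALDH18A1, an enzyme of proline synthesis, was at 37.0 and 52.0 CPM, or -0.48, and SESN2, a leucine sensor, at 10.6 and 16.3 CPM, or -0.58. CEBPB, a partner of ATF4, was at 0.12, with an interval that holds 0 (-0.13 to 0.37), and the serine enzyme PSPH was near 0. None was past 2-fold.

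Solute carriers as a family had a median of -0.36, with 31 of 39 below 0 and none past 2-fold. The median lay between -0.60 and -0.25 over the alternatives run. This family includes SLC38A2, SLC7A1, SLC7A5 and SLC1A5, already counted in the ATF4 list. The lowest were SLC47A1 at -0.98 and SLC52A2, a riboflavin transporter, at 18.6 and 37.5 CPM, or -0.97 (-1.34 to -0.69). The highest, SLC5A6 at 0.18, had an interval that holds 0. Mitochondrial ribosomal proteins had a median of -0.36, with 13 of 15 below 0, and between -0.47 and -0.07 over the alternatives run. MRPL38 was at 50.3 and 78.3 CPM, or -0.63, and MRPL15 at 202 and 150 CPM, or 0.43. MRPL22 was the lowest, at -0.91, though its windows alone were at -0.02 and 0.21. The respiratory chain had a median of -0.22, with 14 of 20 below 0, but 0.05 by occupied positions. UQCRFS1, the iron-sulphur protein of complex III, was at 205 and 337 CPM, or -0.72, and NDUFC2 of complex I at 0.42 (0.16 to 0.70).

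Immediate early genes, switched on within minutes of a stimulus, were below 0 in 10 of 13, with a median of -0.22 (-0.48 to -0.11 over the alternatives run). KLF6 was at 26.6 and 47.0 CPM, or -0.80 (-1.10 to -0.55), KLF4 at -0.70 and the phosphatase gene DUSP1 at -0.48. FOSL1 was at 52.7 and 33.2 CPM, or 0.65 (0.42 to 0.91), and JUND at 66.3 and 77.4 CPM, or -0.22 (-0.41 to -0.04). The intervals of JUN and JUNB, which like these are AP-1 members, hold 0. In the cytoskeleton list 11 of 14 were below 0, with a median of -0.24 that turned to 0.15 by occupied positions. ACTB and ACTG1, the non-muscle actins, were at -0.51 and -0.61, and RHOB at -0.63, whereas TMSB10, which binds actin monomers, was at 0.59. The 2 measured glycolysis genes were GAPDH at -0.57 and PGAM1 at -0.31. In the interferon list MAVS was at -0.55, IFITM1 at -0.41 and IRF1 near 0 at -0.06.

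Lists above 0 were few. Cytosolic chaperones had a median of 0.24, with 7 of 9 above 0, but the start window alone gave -0.25 and the stop window alone -0.11. The median of all transcripts was also below 0 in each window alone, by more than over whole transcripts. DNAJA1, an HSP40 cochaperone, was at 257 and 184 CPM, or 0.48 (0.37 to 0.58), and HSPA8 at 522 and 442 CPM, or 0.24, while the chaperonin subunits CCT4 and CCT5 were both at -0.23. Zinc finger ZNF genes had a median of 0.09, with 41 of 69 above 0, but were below 0 in either window alone. ZNF326 was at 74.4 and 35.6 CPM, or 1.04 (0.84 to 1.29), and ZNF213 at 7.34 and 17.0 CPM, or -1.11. Translation factors had a median of 0.03, which was -0.08 in the start window alone and -0.18 in the authors' deposited table. They ran from EEF2KMT, which methylates EEF2, at -1.24 and the elongation factor EEF2 at -0.37 to the initiation factor subunit EIF3J at 0.39. Members of the list of mRNAs with regulatory upstream frames had a median of 0.06, with MIEF1 highest at 0.33 and KLF6 lowest. Its median was -0.66 in the start window alone, 0.31 in the stop window alone and -0.13 by occupied positions.

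Among the lists near 0, the aminoacyl-tRNA synthetases held 1 outlying member. RARS1 was at 82.4 and 190 CPM, or -1.2 (-1.36 to -1.06), with 59.1% and 87.2% of its window reads at 1 position, while the other 6 lay between -0.17 and 0.13. Cell cycle genes ranged from the ubiquitin-conjugating enzyme CDC34, at 137 and 333 CPM or -1.28 (-1.40 to -1.17), to MCM5 at 0.18. CDK4, the G1 kinase, was at -0.83. Proteasome subunits ran from PSMB3 at -0.79 to PSMA4 at 0.68, and splicing factors from HNRNPA0 at -0.89 to HNRNPC at 0.48. Homeobox genes ran from HOXC10 at -0.68 to SIX4 at 0.81 and HOXA7. In the unfolded protein response HSPA5, the chaperone BiP, was at 0.22 and HYOU1 at -0.33.

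**Figure D5:**
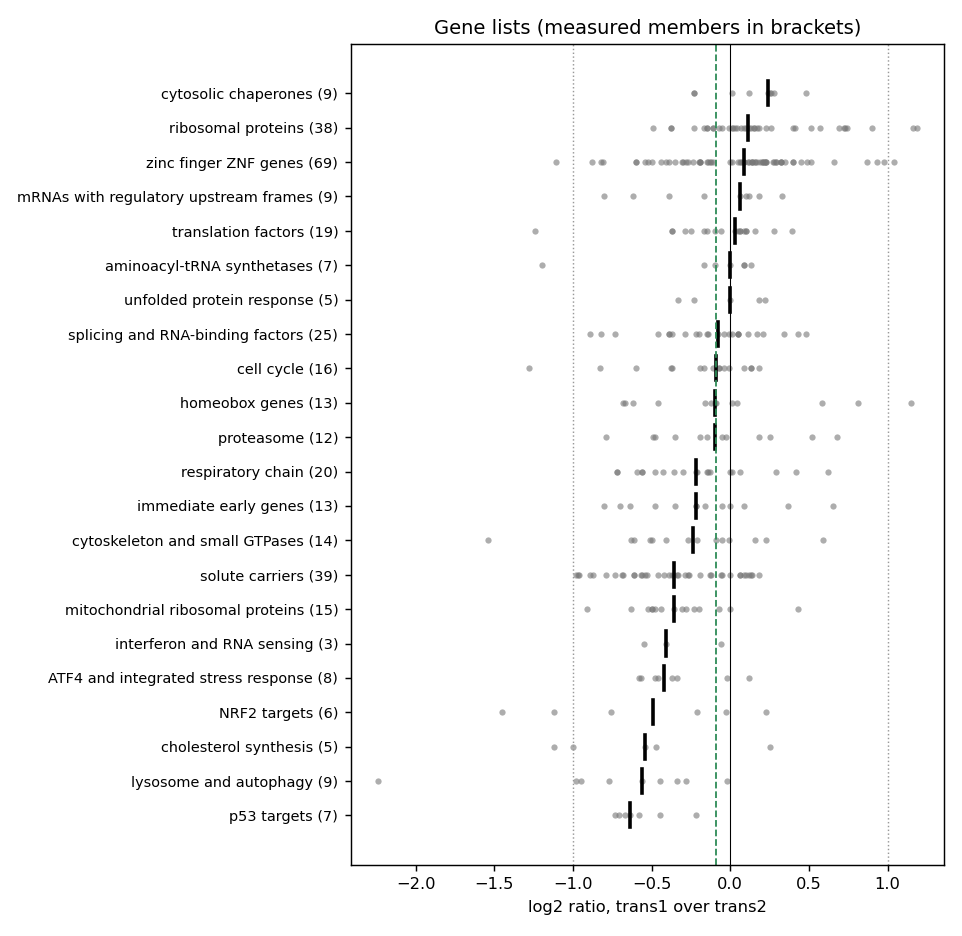
Log2 ratio of trans1 over trans2 (x) for the measured members of 22 gene lists (y, number of members in brackets). Points are genes, black bars list medians, the dashed line the median of all transcripts (-0.09) and the dotted lines 2-fold. All p53 targets and all lysosome and autophagy genes lie below 0, and ribosomal proteins reach from -0.49 to 1.19.

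Abundant mRNAs differed in both directions. Of 81 genes with at least 1000 CPM in 1 library, 46 were above 0, 2 at least 2-fold higher (RPL41 and RPLP1) and 3 at least 2-fold lower (SOX4, KCTD19 and H2AX), beside 0.828% and 3.04% of all transcripts, so the lower calls are near that share. Their median was 0.04. Single genes on the side of trans1, named after their values were seen, were HMGB1 at 0.81, ANP32B at 0.71, HMGB2 at 0.70, the nucleolar protein NCL at 0.66 and HMGN2 at 0.61. Most of the abundant histone genes, described next, lay on the other side. GSTP1, a glutathione transferase, was at 1234 and 2086 CPM, or -0.76, and PRDX4, a peroxiredoxin of the secretory pathway, at -0.60. WDR74 was at 13364 and 6689 CPM, but only 0.159% of its reads in trans1 and 0.441% in trans2 fell in the windows, and the start window alone gave -1.26. USP7 was similar, at 3278 and 5208 CPM with 0.727% and 0.345% in the windows, where it was above 0.

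Histone genes were looked at as a group after their values were seen. Of 20 measured, 18 were below 0, with a median of -0.37. Only H2AX was past 2-fold, or 1 of 20, beside 3.04% of all transcripts. H2AX, the variant phosphorylated at DNA breaks, was at 676 CPM in trans1 and 1783 CPM in trans2, a ratio of -1.40 (-1.45 to -1.35). Only 49.3% of its reads in trans1 and 38.4% in trans2 lay in the windows, which span its recovered length of 435 nt. Unless that length is too small, the other reads lay outside the coding frame, and the ratio of H2AX counts more than coding footprints. H3C2 was at 1700 and 3282 CPM, or -0.95, and the linker histones H1-2 and H1-4 at -0.31 and -0.34. Counted by occupied positions in place of reads, the histone median was 0.25. That count was scaled to its own total in each library. H3C2 came to 0.31 by it, with reads at 234 positions in trans1 and 295 in trans2. The windows hold a limited number of positions, so in deeply read genes this count cannot decide the side. Many histone genes, though not all, are nearly identical copies, so reads may be divided among those copies in a way that cannot be seen here.

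The ratio also moved with features of the transcripts. The median was between -0.17 and -0.10 in the 5 bins of shorter recovered coding length, up to 1446 nt, and 0.04 in the longest bin, from 2586 nt. By level it ran from -0.14 in the lowest of 8 bins to -0.03 in the highest. Among 2101 genes with a RefSeq promoter (83.2% of the measured genes), the median was -0.01 where the GC content of the promoter was up to 60% and -0.18 where it was at least 73.0%. Spearman's rho of promoter GC with the ratio was -0.11 across genes, which are not independent replicates. The part of length, level and GC content in the list medians was not tested.

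The authors' deposited tables give a log2 fold change over starvation for 41748 open reading frames in each trans-RNA library. Subtracting the value of trans2 from that of trans1 takes out the shared starvation library. In the authors' deposited table the median difference was -0.15 over all frames. It was -0.21 for 2118 coding frames, -0.24 for 6143 upstream frames and -0.28 for 1581 upstream frames that overlap the coding start, called uoORF there. Both kinds of upstream frame lay slightly further towards trans2 than the coding frames. For 811 coding frames on transcripts with 8 or more positions, the median difference was -0.21 in the authors' deposited table and -0.09 from the recovered reads, and 74.5% had the same sign.

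The frames with the largest gains over starvation were nearly the same in both of the authors' deposited tables. In trans1 14 frames reached 4 or more on the log2 scale and in trans2 12, and all 12 were among the 14. Of the 14 frames, 2 entered through trans1 alone, which fixes the sign of their difference, and several frames repeat the same values. There were 8 uoORFs, on 4 transcripts. In the authors' deposited table, an overlapping frame of ENST00000679776 was at 5.31 in trans1 and 4.35 in trans2. A frame of ENST00000404241 was at 4.61 and 4.13. The 8 uoORFs were between 0.48 and 0.96 higher in trans1, while uoORFs in general lay towards trans2. The frames on these transcripts may share reads with each other, and no table used here pairs the transcripts with a symbol.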

How the data were processed

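Ribosome-protected fragments of 25-35 nt were sequenced, per the labels' protocols. STAR 2.7.10a, Bowtie 1.2.3, cutadapt 2.8 and bcl2fastq 2.20.0.422 appear in the submitters' processing notes, with neither role nor order. The notes name a mouse build, GRCm39, although the transcript IDs are human, and no source used here states the footprint offset. Footprint density near start and stop codons was deposited as a signal per position, scaled by the authors to each transcript's mean. The authors' fold tables hold log2 fold changes per open reading frame, with unknown scaling. From the deposited peak lists, which hold counts of reads, only the pairing of transcript IDs with symbols was used.

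Densities rise in equal steps, and 1 step equals length divided by the transcript's reads. Reads were recovered as the length over the step, with the shortest length, a multiple of 3, that gives whole reads and holds the window reads, from at least 2 of the 4 Ribo-seq libraries. In 235 transcripts the length had to be raised for that. Where a transcript's reads share a factor in every library, its reads and length are too small by that factor and the ratio is unchanged. Recovered reads were scaled to the library's total (CPM). The recovery was tested on simulated data.

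The tests planned for this pair were rules of size only, because each group holds 1 library. Calls were at least 2-fold on log2((CPM + 1)/(CPM + 1)), with at least 1 CPM in 1 of the 2 libraries. The named genes were the 12 highest and 12 lowest with a symbol, 8 or more positions in both and at least 10 CPM in 1 library, without histones and pseudogenes, then up to 4 members of each list, its highest and lowest, and genes of at least 1000 CPM. Other list members were named after their values were seen. ENST00000674920, the members and the lists were chosen with earlier results of these data known. Symbols exist for 2525 of 8695 transcripts. Alternatives covered pseudocounts of 0.1 and 5, filters, scaling, each window alone, the highest position left out and the authors' folds. Counting occupied positions was added after the data were seen. Window reads and occupied positions were each scaled to their own library totals. Promoters are RefSeq's (GRCh38.p14). Python 3.11.15, numpy 2.4.6, pandas 2.3.3 and scipy 1.17.1 were used.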

Additional observations from a re-analysis of the deposited data

How the results depend on the processing

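No paired analysis was possible because each group holds 1 library. The counts of transcripts at least 2-fold higher and lower in trans1, 101 and 421, became 47 and 170 with a pseudocount of 5 CPM, 562 and 1706 at 1.5-fold, 370 and 1682 from start-window reads, 382 and 1905 from stop-window reads, and 1 and 29 in the authors' deposited coding frames, of which there are fewer. Centring gave 156 higher, and 8 or more positions in both libraries gave 264 lower. More transcripts were lower than higher in trans1 under every setting run.

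The median ratio of -0.108 was -0.093 with a pseudocount of 5 CPM, -0.092 with 8 or more positions, -0.056 with the library total taken without the 10 most read transcripts, -0.245 and -0.290 with the start and the stop window alone, -0.077 with occupied positions in place of reads, -0.208 in the authors' coding frames and 0 by construction when centred. ENST00000674920, at 0.787, was 0.895 when centred, 0.842 with the other library total, 0.834 and 0.412 with the start and the stop window alone, 0.826 without its highest position and 0.465 by occupied positions. The start window's share was 52.1% in trans1 and 52.8% in trans2 without the transcript with most reads there, and 56.4% and 56.5% as a mean over transcripts.

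Of the 24 named genes, ratios reversed with the start window alone for EDEM3 (-0.192), RGS9 (-0.540) and SOX4 (0.017), with the stop window alone for POLR3B (-0.314) and TPR (-1.43), without the highest position for SOX4 (0.029), and by occupied positions for RIBC2 (-0.528). The cause was not tested. Window values are to be read against the medians of all transcripts in those windows, given above. EDEM3 lay above that of the start window. The median of ribosomal proteins was 0.35 by occupied positions, 0.00 in the start window alone and -0.33 over the 20 members with an authors' coding frame. By occupied positions the medians of the respiratory chain, 0.05, and the cytoskeleton list, 0.15, changed sign. Occupied positions were scaled to their own totals, and nearly all transcripts had fewer of them in trans1.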
